A study of Homo sapiens with 3 samples.

Results

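Glucose is committed to glycolysis by 2 phosphorylation steps, and the genes described here encode the enzymes that carry out and tune them: the hexokinases HK1 and HK2, the phosphofructokinase subunits PFKM, PFKL and PFKP, and the bifunctional enzymes PFKFB2, PFKFB3 and PFKFB4. These 8 genes were chosen by name, for their function, out of 24764 genes named on the arrays, and 12 of the 58201 probes measured them. HK1, PFKM, PFKL and PFKFB4 had 1 probe each and the remaining genes had 2. All 12 probes were well above background in both colours of every array.

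Hexokinases trap glucose in the cell by phosphorylating it, and hexokinase II, the product of HK2, is the form known to respond to insulin-like signals and to be abundant in glioblastoma. Phosphofructokinase then phosphorylates the sugar for a second time, which is the main point of control of the pathway. The PFKFB enzymes make and remove fructose bisphosphate of the regulatory kind, a potent activator of phosphofructokinase, and so set its pace.

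RNA came from U87 cells, an established adult glioblastoma line that expresses the IGF1 receptor (IGF1R). U87WT 5 was transfected with GFP-IGF1R and U87Mut 5 with GFP-IGF1R1025x-1100x-1120x, a receptor whose lysines at the numbered sites were replaced so that it stays out of the nucleus per the labels. Each is a single stable clone selected with G418, so clone and receptor cannot be told apart, and the cells still carry their own IGF1R. Both clones were kept for 24 h in FBS-free medium, with 50 nM IGF1, or with 50 nM IGF1 and the IGF1R and insulin receptor kinase inhibitor OSI906, given in the labels as 0.5 μM in one place and 500 μM in another. The treatment text in the labels puts the time with OSI906 before IGF1 at 24 h, where the study's methods give a shorter time, and which of these applies was not settled. One two-colour array was hybridized per condition, 3 in all, with U87WT in Cy5 (red) and U87Mut in Cy3 (green) each time. Parental U87 cells were not analysed here.

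No condition was repeated and no dye swapped, so condition and array cannot be told apart, nor can dye and clone. Levels are log2 brightness after normalization, a clone ratio is the level in U87WT minus that in U87Mut on the same array, and a response is the difference in level of one clone between arrays. A difference beyond 0.5 log2 units in either direction was counted. Among 274 probes printed several times, the median SD between spots was 0.0477 for a ratio, and 0.124 to 0.165 for the level in a single colour before normalization, so ratios were the more precise measure. Each probe of the 8 genes had 1 spot per array. Both clones are read from that spot, so a shift that they share between arrays is not a repeat. In bulk RNA, fewer cells and less RNA per cell cannot be told apart. Of 8 astroglial and glioma markers 5 were well above background. VIM (14.87 to 16.07) and CD44 (13.99 to 14.60) were bright in all channels. NES (6.66 to 7.32), AQP4 (6.12 to 6.34) and OLIG2 (6.05 to 6.14) were dim. The astroglial GFAP, S100B and SOX2 were not above background. All 3 neuronal markers, RBFOX3 (8.50 to 9.81), SNAP25 (8.40 to 10.34) and the dimmer SYT1 (6.42 to 6.69), were above it. SNAP25 had clone ratios of 1.06, 1.03 and 0.91 in serum-free medium, IGF1 and IGF1 with OSI906 (limma, adjusted p = 0.00272), and VIM of 1.15, 0.29 and 0.77. RBFOX3 (-0.31, -0.55 and 0.38) and SYT1 (-0.28, -0.17 and -0.06) had no such ratios. Of the other markers above background, the epithelial EPCAM was higher in U87WT by 0.36 (limma, adjusted p = 0.0460), while the myeloid PTPRC and the endothelial CDH5 had mean ratios of 0.07 and 0.01. The part of these markers in the results was not tested. IGF1R itself had ratios of 0.07, 0.23 and 0.09 in serum-free medium, IGF1 and IGF1 with OSI906 (mean 0.13 ± 0.05 SE, n = 3, limma adjusted p = 0.201), and whether its probe reads the transgene is not given in the sources used here.

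**Figure D1:**
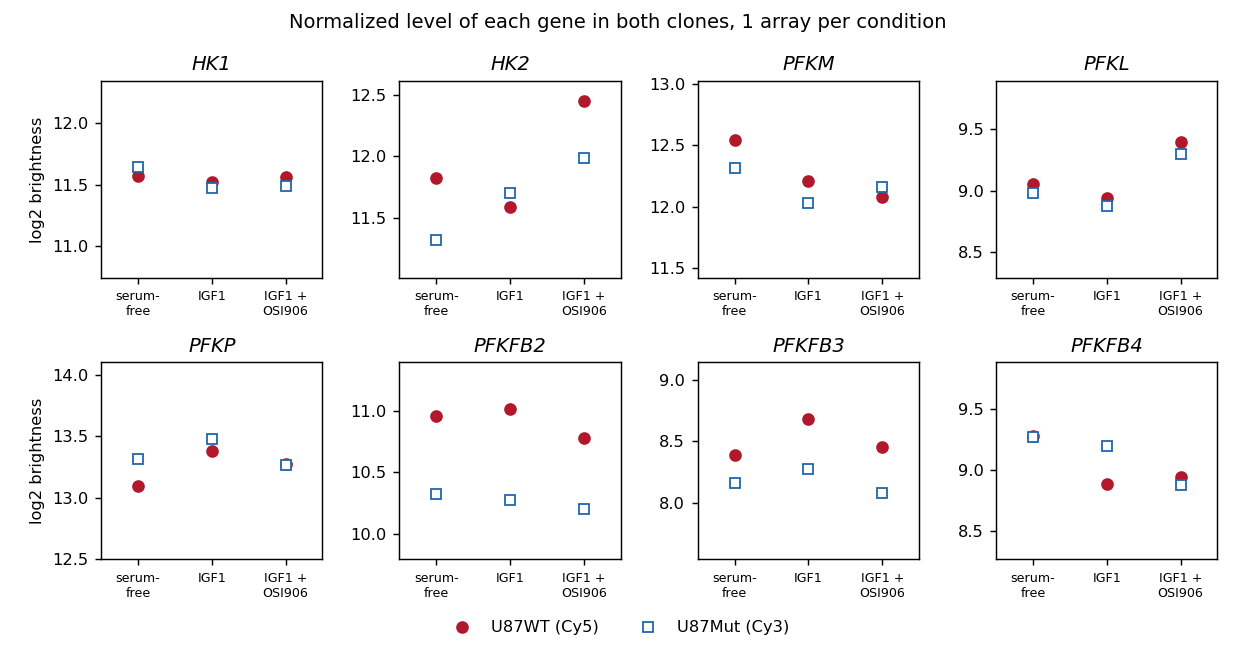
Log2 brightness (vertical axis) of each gene by its brightest probe in serum-free medium, IGF1, and IGF1 with OSI906 (horizontal axis), with U87WT as filled circles and U87Mut as open squares. Each point is 1 channel of 1 array, with no replicate; every panel spans the same 1.6 log2 units, and HK2 covers the widest range, from 11.32 to 12.45.

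HK2 varied more than any other gene of the group, over 1.13 log2 units between channels. Its level in U87WT was 11.82 in serum-free medium, 11.59 with IGF1 and 12.45 with IGF1 and OSI906. In U87Mut the corresponding levels were 11.32, 11.70 and 11.99. Both clones thus had their highest HK2 level on the OSI906 array, and the lowest value of all was that of serum-free U87Mut. In order of level, the steps between the middle 4 channels, from 11.59 to 11.99, were 0.11, 0.12 and 0.16, no more than the widest median SD between spots of a single colour, 0.165, whereas the lowest and the highest stood apart by 0.27 and 0.46. The step of 0.11 was between the clones on the IGF1 array and thus a ratio, for which the SD between spots on that array was 0.0502.

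With OSI906 added to IGF1, HK2 was higher by 0.86 in U87WT (1.81-fold) and by 0.28 in U87Mut (1.22-fold). Against serum-free medium it was higher by 0.63 in U87WT and 0.66 in U87Mut. By brightest probes, HK2 was the only one of the 8 genes past 0.5 in the OSI906 minus IGF1 difference of U87WT. There, 7.32% of 15178 named genes well above background were past it. HK2 was also the only one in the OSI906 minus serum-free differences of U87WT (background 4.61%) and of U87Mut (background 1.43%). No gene of the group passed 0.5 in the OSI906 minus IGF1 difference of U87Mut, where 3.04% of all genes did. A scaling without normalization between arrays lowered the last pair of values to 0.36 and 0.40, while the median of all genes moved to -0.20 in each clone; relative to that median they were 0.57 and 0.60.

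IGF1 alone went with opposite HK2 differences in the clones: against serum-free medium HK2 was 0.23 lower in U87WT and 0.38 higher in U87Mut. The gap of -0.61 between these responses was past 0.5, as was that of 5.39% of all genes, and no other gene of the group had such a gap. The same holds for the gap of 0.58 in the effect of OSI906, against 6.12% of all genes. These differences were not tested. With median centring in place of loess the IGF1 response of HK2 became 0.14 in U87WT and 0.00 in U87Mut, but the median of all genes then stood at 0.24 and -0.27. Relative to the median of all genes, HK2 was between -0.32 and -0.10 in U87WT and between 0.27 and 0.45 in U87Mut under all 6 ways of background correction and scaling compared for this purpose.

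The clone ratio of HK2 was 0.50 in serum-free medium, -0.11 with IGF1 and 0.46 with IGF1 and OSI906. It therefore stood just past the limit on the first array and just under it on the third. The IGF1 ratio was -0.27 with normexp fitted on all spots and 0.42 with median centring, where the median of all genes was 0.30 and the other ratios were 0.27 and 0.66. Over the 3 arrays the mean ratio was 0.28 ± 0.13 (SE, n = 3) and HK2 was not called (limma, adjusted p = 0.326). Without the IGF1 array the mean was 0.48 and limma called it (adjusted p = 0.00705). A second HK2 probe was dim, at 29 to 41 units of raw brightness over a local background of 20 to 23, and its ratios were -0.13, -0.07 and -0.04; the mean of both probes left HK2 under the limit in every comparison.

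The promoter of HK2 at its first annotated start is shown because its transcript had the widest range, together with that of PFKL, the other gene that was higher with IGF1 and OSI906 than in serum-free medium in both clones. Each stretch holds the 250 bases before the annotated start (RefSeq, GRCh38.p14), HK2 at chr2:74833877-74834126 and PFKL at chr21:44299803-44300052, both on the plus strand. Capitals mark ACGTG, a form of the core letters of a hypoxia response element, read on either strand. The form GCGTG was not searched or marked, and it occurs in both stretches.
HK2: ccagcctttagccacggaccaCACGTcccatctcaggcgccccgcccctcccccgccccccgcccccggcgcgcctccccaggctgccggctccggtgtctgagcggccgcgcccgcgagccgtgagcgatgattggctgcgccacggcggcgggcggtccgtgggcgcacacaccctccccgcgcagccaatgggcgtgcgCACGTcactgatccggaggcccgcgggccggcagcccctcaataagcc
PFKL: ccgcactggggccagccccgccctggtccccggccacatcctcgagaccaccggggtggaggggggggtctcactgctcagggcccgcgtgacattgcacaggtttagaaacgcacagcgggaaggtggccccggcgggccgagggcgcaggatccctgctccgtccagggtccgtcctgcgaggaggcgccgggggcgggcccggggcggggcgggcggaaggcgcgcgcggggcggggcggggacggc
The HK2 stretch holds ACGTG at 2 places and the PFKL stretch at none. HK2 has a second annotated start, within the gene, whose upstream stretch is not shown. That stretch holds 2 copies of CACGTG, which reads the same on both strands, and ACGTG nowhere else. Of 35116 promoters of the same length, 18.5% hold ACGTG on either strand, 6.34% its longer form CACGTG, which contains it, and 2.98% the FOXO letters TGTTTAC. Over the 24 starts of the 7 genes listed (PFKFB2 has no entry), 5 hold ACGTG, 2 hold CACGTG and 0 hold TGTTTAC. Such matches are a description of the letters and not of binding.

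HK1, the form found in most tissues, varied least: its 6 levels lay between 11.47 and 11.65, each at most 0.08 from the next. Its clone ratios were -0.08, 0.04 and 0.07, and its mean of 0.01 ± 0.04 had a 95% half-width of 0.12 (limma, adjusted p = 0.920). The largest response of HK1 was the 0.17 lower level of U87Mut with IGF1.

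**Figure D2:**
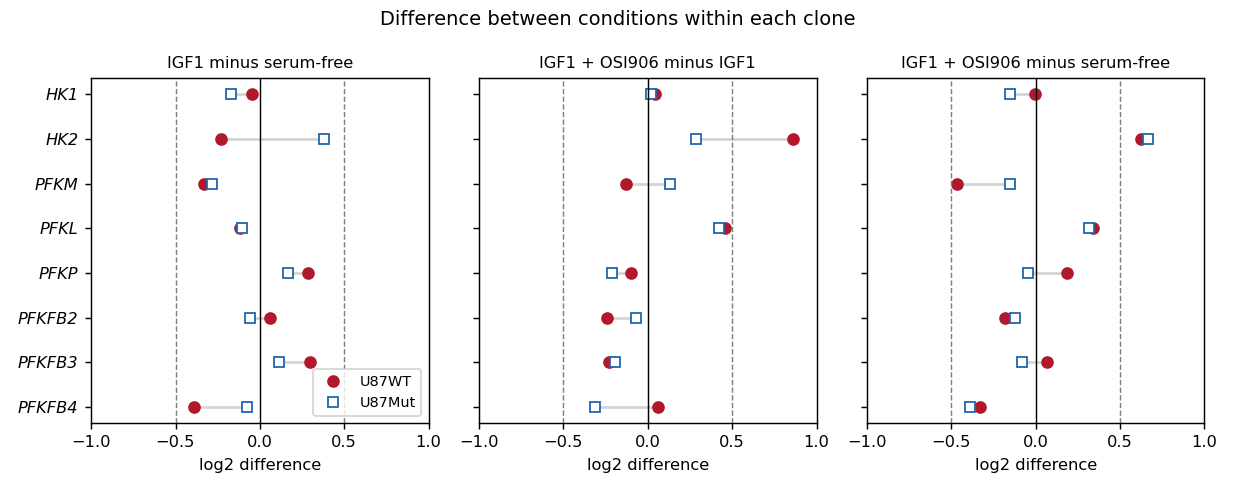
Log2 difference between conditions within U87WT (filled circles) and U87Mut (open squares) for each gene, in 3 panels for IGF1 minus serum-free, IGF1 with OSI906 minus IGF1, and IGF1 with OSI906 minus serum-free. Dashed lines mark 0.5 in either direction. Each point is that of the brightest probe and rests on 2 channels with no replicate. HK2 is the only gene beyond a line, up to 0.86.

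Among the phosphofructokinase subunits, PFKL, the liver type, was highest on the array of IGF1 with OSI906 in both clones. Both clones were read from the same spot there, so their agreement is not a repeat. Its level in U87WT was 9.06, 8.94 and 9.40 in serum-free medium, IGF1 and IGF1 with OSI906, and in U87Mut 8.98, 8.88 and 9.30. The levels on the OSI906 array lay above all others, with a step of 0.24 up to them. With OSI906, PFKL was higher than with IGF1 alone by 0.46 in U87WT and 0.42 in U87Mut, both just under 0.5. Without normalization between arrays its difference from serum-free medium shrank from 0.34 and 0.32 to 0.11 and 0.08, or to 0.31 and 0.28 relative to the median of all genes. The clone ratios of PFKL, 0.08, 0.06 and 0.10, had a mean of 0.08 ± 0.03 (limma, adjusted p = 0.273). The IGF1 ratio turned to -0.22 with normexp fitted on all spots and to -0.28 in the deposited ratios, and it was 0.41 with median centring, where the median of all genes was 0.30.

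PFKM, the muscle type, took the other course and was highest in serum-free medium with neither IGF1 nor OSI906. U87WT had 12.54 in serum-free medium, 12.21 with IGF1 and 12.08 with IGF1 and OSI906, and U87Mut had 12.32, 12.03 and 12.16. With IGF1, PFKM was 0.33 lower in U87WT and 0.29 lower in U87Mut. Adding OSI906 left it at 0.47 below the serum-free level in U87WT and 0.15 below it in U87Mut. Median centring turned the IGF1 response of U87WT to 0.04, with the median of all genes at 0.24. The mean clone ratio was 0.11 ± 0.07 (limma, adjusted p = 0.494).

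PFKP, the platelet type and an abundant form in many tumour lines, had levels from 13.09 in serum-free U87WT to 13.48 in U87Mut with IGF1. With IGF1 it was 0.29 higher in U87WT and 0.16 higher in U87Mut. Its second probe, annotated to a different transcript, gave the same directions with larger differences, 0.56 and 0.34. Both probes had lower levels in U87WT than in U87Mut in serum-free medium, with ratios of -0.22 and -0.39, and neither was called over the 3 arrays (limma, adjusted p = 0.389 and 0.0851). Levels of different subunits are read by different probes and were not compared.

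In response to IGF1, none of the 8 genes passed 0.5 by its brightest probe in U87WT, where 4.51% of all genes did, or in U87Mut, where 2.48% did. PFKP and PFKFB3 were higher with IGF1 in both clones, HK1, PFKM, PFKL and PFKFB4 were lower in both, and HK2 and PFKFB2 differed in direction. Several of these are small and turned: with normexp fitted on all spots PFKFB3 was at -0.03 in U87WT, PFKL at 0.02 and PFKFB4 at 0.07 in U87Mut, and the second PFKFB3 probe was at -0.17 in U87WT. The median response of the 8 genes was -0.08 in U87WT and -0.07 in U87Mut, beside 0.02 and -0.03 for all genes.

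**Figure D3:**
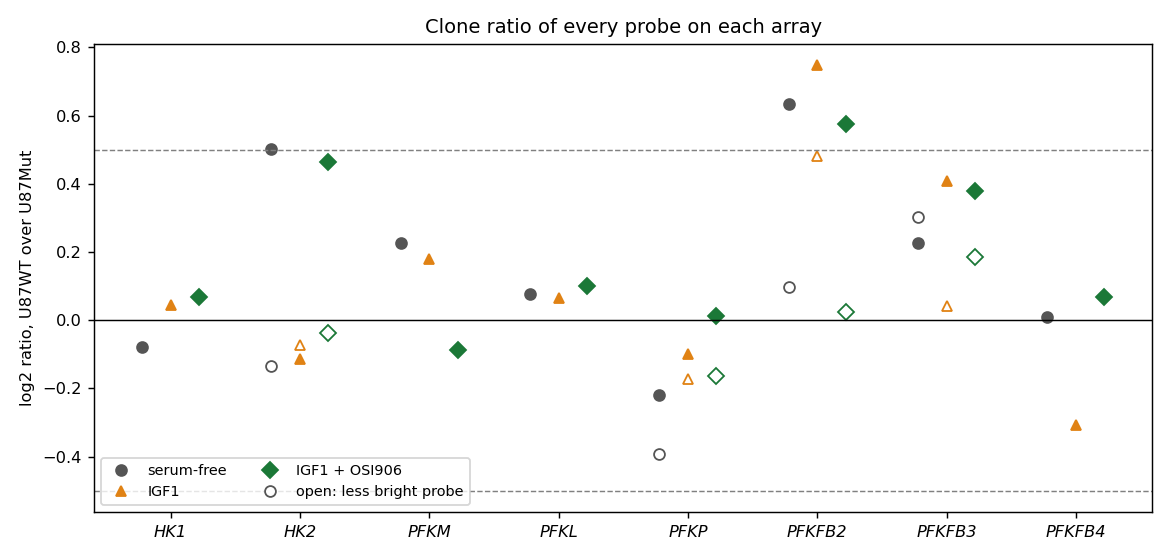
Log2 ratio of U87WT over U87Mut (vertical axis) of all 12 probes on the serum-free array (circles), the IGF1 array (triangles) and the array of IGF1 with OSI906 (diamonds), with the brightest probe of each gene filled and the less bright one open. Dashed lines mark 0.5 in either direction; the brightest probe of PFKFB2 is above the upper line on all 3 arrays, at 0.57 to 0.75.

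The clearest difference between the clones was in PFKFB2, the heart-type bifunctional enzyme, whose kinase side is activated by phosphorylation through AKT. Its level in U87WT was 10.96, 11.02 and 10.78 in serum-free medium, IGF1 and IGF1 with OSI906, and in U87Mut 10.33, 10.27 and 10.20. The clones did not overlap, with a gap of 0.45 between the highest U87Mut and the lowest U87WT level. How many of all genes separate in this way was not counted. The ratios were 0.63, 0.75 and 0.57, which is 1.55-, 1.68- and 1.49-fold. PFKFB2 was past 0.5 on all arrays; beside it, HK2 was past it in serum-free medium (2 of 8 genes, background 12.4%), and no other gene was with IGF1 (1 of 8, background 11.9%) or with IGF1 and OSI906 (1 of 8, background 11.4%).

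Over the 3 arrays PFKFB2 was higher in U87WT by 0.65 ± 0.05 (SE, n = 3; 95% half-width 0.12; limma, adjusted p = 0.00483). The second gene called was PFKFB3, the inducible bifunctional enzyme with the highest kinase activity relative to its phosphatase, at 0.34 ± 0.05 (limma, adjusted p = 0.0223). Both calls were in the direction of U87WT, 2 of 8 genes, where limma called 22.7% of all named genes well above background, 11.5% as higher and 11.3% as lower. The median of the 8 mean ratios was 0.09, beside 0.00 for all genes.

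PFKFB3 had levels of 8.39, 8.68 and 8.46 in U87WT and 8.16, 8.28 and 8.08 in U87Mut, in the same order of conditions. All U87WT levels were above all U87Mut levels, although the groups lay only 0.11 apart, less than the widest SD between spots of a single colour. How common this is among all genes was likewise not counted. The ratios were 0.23, 0.41 and 0.38, none past 0.5. Without the array of IGF1 and OSI906 the mean was 0.32 and PFKFB3 was no longer called (limma, adjusted p = 0.145).

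The sizes of PFKFB2 and PFKFB3 on the IGF1 array moved with the background fit. That array had 572 spots marked as not uniform by the scanner software, against 384 and 5 on the others, and they were left out here. With all spots fitted, the estimated background SD in red on the IGF1 array was 701 instead of 1.32 units of brightness, and the IGF1 ratio of PFKFB2 became 0.39 instead of 0.75, so that PFKFB2 was lowest rather than highest on that array. PFKFB3 then had an IGF1 ratio of 0.01. Under that fit the mean ratios were 0.53 and 0.20 and limma called neither (adjusted p = 0.0561 and 0.411). Without the IGF1 array limma called both, at means of 0.60 and 0.30 (adjusted p = 0.00457 and 0.0371), and it called neither with the processed signals of the scanner software (0.69 and 0.44, adjusted p = 0.153 and 0.241) or with median centring (0.75 and 0.37, adjusted p = 0.372 and 0.671). In the deposited ratios the IGF1 values were 0.35 for PFKFB2, under 0.5, and -0.02 for PFKFB3. The raw brightness of PFKFB2 on the IGF1 array was 2383 in red and 923 in green, over local backgrounds of 22 units.

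In their clone ratios, the less bright probes of the bifunctional enzymes agreed in direction and not in size. The second PFKFB2 probe, annotated to another transcript, had raw brightness of 32 to 70 units and ratios of 0.10, 0.48 and 0.02 (limma, adjusted p = 0.345). In U87WT this probe was at 0.30 for IGF1 minus serum-free and at -0.51, past the limit, for OSI906 minus IGF1. The second PFKFB3 probe had ratios of 0.30, 0.04 and 0.19 (limma, adjusted p = 0.180).

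PFKFB4, the testis-type enzyme known to be induced by low oxygen, had the lowest ratio of the 8 genes on the IGF1 array. Its level in U87WT was 9.28, 8.89 and 8.95 in serum-free medium, IGF1 and IGF1 with OSI906, and in U87Mut 9.27, 9.19 and 8.88. The clones thus had nearly the same level on the serum-free array and on the OSI906 array. With IGF1 alone, U87Mut was 0.07 below its serum-free level and U87WT 0.39 below it. The ratios were 0.01, -0.31 and 0.07, and the mean was -0.08 ± 0.08 (limma, adjusted p = 0.688). With IGF1 and OSI906, PFKFB4 was 0.33 below its serum-free level in U87WT and 0.39 below it in U87Mut. Median centring moved the IGF1 ratio to 0.05, and the median ratio of all genes on that array to 0.30. The IGF1 ratio was -0.46 with normexp fitted on all spots and -0.54 in the deposited ratios, the latter past 0.5.

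**Figure D4:**
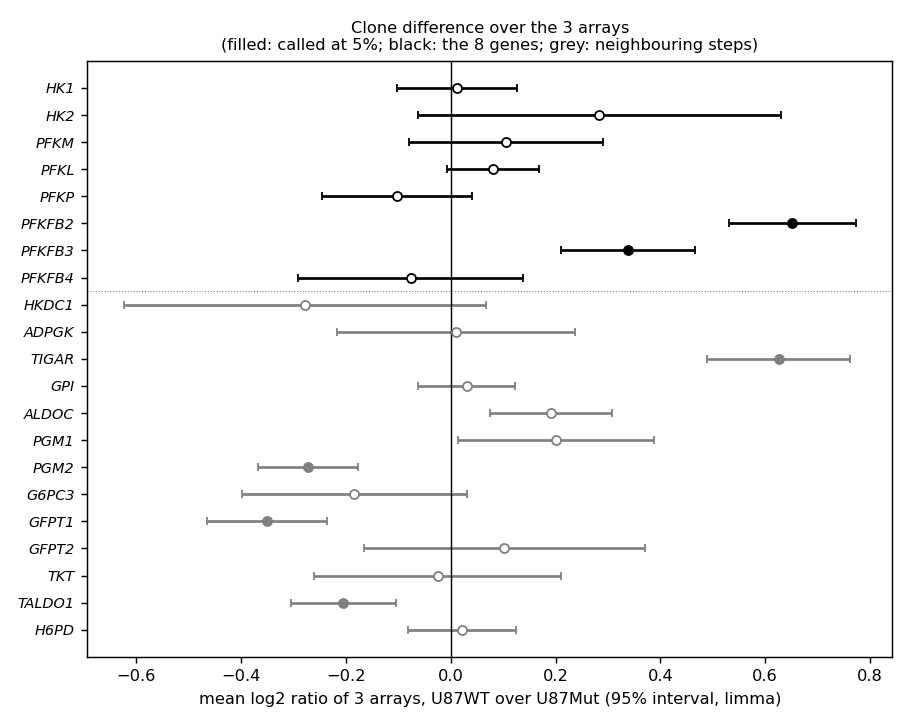
Mean log2 ratio of U87WT over U87Mut across the 3 arrays (horizontal axis) with its 95% interval from limma, for the 8 genes (black) and for the 13 genes of neighbouring steps well above background (grey). Filled points were called at an adjusted p under 5%; PFKFB2 and TIGAR lie close together at 0.65 and 0.63.

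Of 19 genes listed for the steps next to these enzymes, 18 had a probe and 13 were well above background. TIGAR, a phosphatase that removes the activator which the PFKFB kinases make, was higher in U87WT by 0.63 ± 0.05 (limma, adjusted p = 0.00657). Its ratios of 0.64, 0.73 and 0.51 were past 0.5 on every array, as those of PFKFB2 were. PGM2 (-0.27), GFPT1 (-0.35) and TALDO1 (-0.21) were lower in U87WT (limma, adjusted p = 0.0183, 0.0156 and 0.0433), so that limma called 1 of the 13 as higher (background 11.5%) and 3 as lower (background 11.3%). PGM2 belongs to the interconversion of sugar phosphates, GFPT1 opens the hexosamine branch and TALDO1 belongs to the non-oxidative pentose phosphate branch. With normexp fitted on all spots limma called none of the 4 (adjusted p = 0.233, 0.0570, 0.0514 and 0.392, in the order named).

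HKDC1, a further hexokinase, had by its brightest probe the largest responses of all these genes. Its level was 9.41, 10.69 and 9.32 in U87WT and 10.01, 10.60 and 9.65 in U87Mut, for serum-free medium, IGF1 and IGF1 with OSI906. The clone ratios were -0.59, 0.09 and -0.33 in that order. The first was past 0.5 (background 12.4%), and limma did not call HKDC1 (adjusted p = 0.335). Both clones had their highest HKDC1 level with IGF1, unlike HK1 and HK2. With IGF1, HKDC1 was higher by 1.28 in U87WT and 0.60 in U87Mut, and with OSI906 added it was lower by 1.37 and 0.95. Of all genes, 4.51% in U87WT and 2.48% in U87Mut were past 0.5 with IGF1, and 7.32% and 3.04% with OSI906 added. A second HKDC1 probe, also well above background, gave smaller values in the same directions: 0.55 and 0.37 higher with IGF1, and 0.23 and 0.36 lower with OSI906 added, in U87WT and U87Mut. The signs of the 4 values of the brighter probe were the same under all 6 ways of background correction and scaling compared for this purpose, and the smallest was 0.22 in U87Mut. HK2, by contrast, was highest on the OSI906 array.

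Past 0.5 among the other neighbours were GFPT2 and TKT. GFPT2, which like GFPT1 opens the hexosamine branch, was higher with OSI906 than with IGF1 alone by 0.52 in U87WT and 0.78 in U87Mut. TKT, of the pentose phosphate branch, was lower with OSI906 by 0.69 in U87WT and by 0.27 in U87Mut. The remaining genes well above background, ADPGK, GPI, ALDOC, PGM1, G6PC3 and H6PD, passed 0.5 in no ratio or response and were not called by limma. HK3, PFKFB1, FBP1 and FBP2 were not well above background in every channel, and ALDOA had no matched probe.

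The genes whose pattern was most like each member were found as the smallest Euclidean distance over the 6 channel levels, each centred on its own mean, among 15177 genes. For HK2 the nearest were CD164 at 0.23 and CCDC85B at 0.26. Levels were not scaled to their range, so distances tend to be larger for a gene of wide range such as HK2. For PFKFB2 they were PLEKHO1 at 0.06 and CLCN4 at 0.10, with ratios of 0.56 to 0.73 and 0.57 to 0.73. RAPH1 (0.08) and BSCL2 (0.09) were nearest to PFKL, and APLN (0.12) and LIMS1 (0.15) to PFKFB4. CHIT1 and ARHGAP17 lay at 0.10 from PFKFB3, and KMT2E at 0.10 from PFKM. TAF8 (0.02) and MIA2-AS1 (0.05) were nearest to HK1, and LOC105372708 (0.05) and DCLK2 (0.07) to PFKP. With 6 channels and many genes, small distances are found for flat patterns such as that of HK1 in any case.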

How the data were processed

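The 3 samples were analysed, each a two-colour Agilent SurePrint G3 array comparing U87WT 5 with U87Mut 5, grouped by medium as the labels give it. The intensity values were deposited as Agilent Feature Extraction 12.0.3.1 gave them, per the file headers: median brightness of spot and local background in red and green, not normalized, with marks for spots, and processed intensities already corrected for background and dye. Log2 ratios of the clones (U87WT over U87Mut) were deposited too; per the methods limma served for their background correction and for both normalizations. Direction follows the dyes in the labels.

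For the values given here, limma 3.58.1 in R 4.3.3 was run with normexp with an offset of 50 fitted without spots marked not uniform, loess with weight 0 for control and marked spots, which were then dropped, and Aquantile between arrays; 62976 spots gave 58201 probes. The methods state a limit of 0.5 in units of SD; here 0.5 was taken in log2 units. A limma model with an intercept only was fitted on 57318 probes over the 3 arrays, with Benjamini-Hochberg adjustment over all of them; it called 5071 probes, and since the arrays are different media, responses to medium add to its error. Intervals are 95%. P-values measure the spread between these arrays only. All 3 lie on 1 slide and were scanned together, so neither can be a batch term. Array number limits the precision. Gene names came from RefSeq accessions (34892 of 36770 matched, GRCh38.p14).

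Genes named are the 8 members by their brightest probe, a list of neighbouring steps and, for each member, the 2 nearest genes; some of these are not reported here. The members, lists and tests were chosen with earlier results of these data known. Scripts were tested on simulated data.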

Additional observations from a re-analysis of the deposited data

Results flagged for a closer look

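In 6 cases a gene differed in opposite directions in the clones between the same 2 conditions. Both values had to be beyond 0.0477, the median SD between spots of a ratio. Single-colour levels had a wider median SD, up to 0.165, and a difference between levels on different arrays has a wider one still. Only HK2 was beyond 0.165 in both clones. None of these differences was tested, since each clone has 1 channel per condition. With IGF1 against serum-free medium, HK2 was at -0.23 in U87WT and 0.38 in U87Mut, and PFKFB2 at 0.058 and -0.056. With normexp fitted on all spots these PFKFB2 values became -0.13 and 0.10. With OSI906 added to IGF1, PFKM was at -0.13 in U87WT and 0.13 in U87Mut, and PFKFB4 at 0.061 and -0.31. With IGF1 and OSI906 against serum-free medium, PFKP was at 0.19 in U87WT and -0.048 in U87Mut, and PFKFB3 at 0.067 and -0.083.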

How the results depend on the processing

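No paired analysis was possible because each condition has 1 array and the labels carry no replicate numbers, beyond the clone ratio itself, which sets the clones side by side on each array and is what limma tested over the 3 arrays. The number of the 8 genes that limma called, 2, was 0 with normexp fitted on all spots, with the scanner software's processed signals, with median centring and with the deposited log2 ratios (1, 2, 2 and 1 genes at an unadjusted p under 0.05); it ranged from 1 to 3 when 1 array was left out. PFKFB2 kept a mean ratio of 0.53 to 0.75 under those 4 alternatives. On the serum-free array 2 genes were past 0.5; there were 1 with all spots fitted and 0 with median centring, with a gene's probes averaged and with a limit of 0.8. On the IGF1 array, 1 became 0 with all spots fitted, 5 with median centring and 0 with the limit of 0.8. On the array of IGF1 and OSI906, 1 became 3 with processed signals, 2 with median centring, 0 with probes averaged and 0 with the limit of 0.8. In U87WT the IGF1 response went from 0 genes to 2 with median centring and 2 without normalization between arrays; OSI906 minus IGF1 from 1 to 2 with all spots fitted, without background correction and with processed signals, and to 0 with probes averaged; OSI906 minus serum-free from 1 to 2 with median centring, without normalization between arrays and with quantile scaling of the 6 channels, and to 0 with probes averaged and with the limit of 0.8. In U87Mut the IGF1 response went from 0 to 2 with median centring and 1 without normalization between arrays; OSI906 minus IGF1 from 0 to 1 with processed signals and with median centring; OSI906 minus serum-free from 1 to 0 with probes averaged and with the limit of 0.8. The cause was not tested. The other 79 such counts stayed within 1.5 times the main count. A count can stay while its gene changes. In the deposited ratios of the IGF1 array, PFKFB4 was past 0.5 at -0.54 and PFKFB2 was under it at 0.35. Median centring shifted the median IGF1 response of all genes to 0.24 in U87WT and -0.27 in U87Mut. Of 80 ratios, means and responses, 67 kept their sign with all spots fitted, 62 with median centring, and 72 with processed signals. Leaving marked spots out of the background fit alone, an alternative chosen after seeing the data, kept the sign of all 80. Dim probes at 29 to 70 units of raw brightness limit what the second probes of HK2 and PFKFB2 can show.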
